A study of Mus musculus with 5 samples.

Results

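GABA-A receptors are the main fast inhibitory receptors of the brain, and 7 genes of their subunits, Gabra2, Gabra3, Gabra4, Gabra5, Gabrb1, Gabrb2 and Gabrd, are described here in the striatum of Huntington's disease (HD) mice with and without overexpressed miR-196a. The members were every probe of a single-colour mouse array whose platform gene symbol was one of these 7, whatever its value. They were 7 of 17742 genes with a symbol and had 9 of the 26423 probes, because Gabra2 and Gabrb2 had 2 probes each and the other genes 1. The HD_miR196a group was 3 male FVB mice that carried both an HD transgene and a transgene for a miR-196a precursor, obtained by crossing an HD line with a miR-196a line. The HD group was 2 male FVB mice that carried the HD transgene alone. In both groups the HD transgene encoded GFP fused to the first exon of human HTT, with a tract of 84 CAG repeats. A human ubiquitin promoter, which is active in most cell types, drove both transgenes, and the mice were about 12 months old. The labels describe motor function as improved in the HD_miR196a mice and weak in the HD mice. Mice without the HD transgene were not analysed here, so no value compares HD with healthy striatum.

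Each GABA-A receptor is a ring of 5 subunits around a chloride channel, in most cases alpha and beta subunits with a gamma or a delta subunit. Receptors with alpha2 or alpha3 and a gamma subunit gather at synapses and carry brief, phasic inhibition. Receptors with delta, which in the forebrain pairs mainly with alpha4, and many receptors with alpha5 lie outside synapses and carry the tonic current that ambient GABA evokes. Beta subunits occur in both kinds. The medium spiny neurons that make up most of the striatum release GABA themselves and receive it from each other and from interneurons. The comparison asks whether transcripts of synaptic or extrasynaptic subunits differed when miR-196a was overexpressed in HD mice.

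The microRNA is shown because it is the agent that separates the groups. In RefSeq (GRCm38.p6) both mouse precursors, on chromosomes 11 and 15, give the same mature 5p arm, with its seed (bases 2 to 8) in capitals. Which precursor the transgene carries was not given in the sources used here.
mmu-miR-196a-5p: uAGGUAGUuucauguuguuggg
No 3' untranslated sequences were used here, so matches of this seed in the subunit transcripts were not examined.

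The subunit genes sit in clusters along the chromosomes. In the RefSeq gene order Gabrg1 neighbours Gabra2 on chromosome 5, and after 1 other protein-coding gene, Cox7b2, Gabra4 neighbours Gabrb1. Gabra5 neighbours Gabrg3 on chromosome 7, Gabra3 neighbours Gabrq on the X chromosome, Gabrb2 neighbours Gabra6 on chromosome 11, and Gabrd has no subunit gene beside it on chromosome 4. Gabra4, an extrasynaptic alpha subunit, and Gabrb1, a beta subunit, start on opposite strands with 387 bases between their first annotated starts, and each primary transcript runs past the start of the other. Their start windows, 250 bases before to 50 bases after the start, are shown because these 2 members share a start region, and capitals mark the GC box GGGCGG on either strand.
Gabra4 (GRCm38.p6, chr5:71658259-71658558, minus strand): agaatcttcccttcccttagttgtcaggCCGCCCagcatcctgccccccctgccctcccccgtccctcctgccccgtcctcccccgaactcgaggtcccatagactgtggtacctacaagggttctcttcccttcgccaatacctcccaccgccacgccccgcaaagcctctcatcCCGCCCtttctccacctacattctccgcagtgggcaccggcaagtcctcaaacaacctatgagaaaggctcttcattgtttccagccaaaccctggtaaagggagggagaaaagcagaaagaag
Gabrb1 (GRCm38.p6, chr5:71657671-71657970, plus strand): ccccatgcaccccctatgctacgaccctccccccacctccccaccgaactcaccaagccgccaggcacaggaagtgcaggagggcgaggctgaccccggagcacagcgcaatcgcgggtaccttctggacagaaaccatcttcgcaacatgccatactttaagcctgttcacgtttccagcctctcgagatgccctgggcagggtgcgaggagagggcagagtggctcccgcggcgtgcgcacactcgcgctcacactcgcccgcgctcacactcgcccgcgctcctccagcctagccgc
The Gabra4 window held 2 GC boxes, at bases 29 and 177 of the window, and 12 CpG dinucleotides, and the Gabrb1 window held 0 GC boxes and 25 CpG dinucleotides. The median over all 32851 mouse windows was 7 CpG dinucleotides, and 35.7% of windows held a GC box. Neither window held a TATA box (TATAAA, 13.6% of all windows), a cAMP response element (TGACGTCA, 1.79%) or the EGR sites GCGTGGGCG (0.612%) and GCGGGGGCG (2.91%), each searched on both strands with overlapping matches counted. Of the 7 members 6 had a window in the RefSeq table. The 2 windows of Gabra3 overlap and share 1 match to TATAAA, which lies upstream of both starts on the strand opposite the gene. Each of them held 0 CpG dinucleotides.

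Values below are log2 intensities after quantile normalization, 1 value per probe and mouse, and a difference is always HD_miR196a minus HD on that scale. Deposited medians were between 160.0 and 166.3 in HD_miR196a mice and 184.3 and 185.6 in HD mice, and the normalization removes this difference between the groups. As a measure of background, 544 olfactory receptor probes, whose genes are mostly silent in striatum, had a 95th percentile of 8.31. Of 13 measured marker genes of medium spiny neurons 11 were above that value, while the Drd2 probe was between 0.00 and 2.04 in all mice. The cortical projection neuron list, 14 genes measured, averaged 8.08, 9.78 and 9.56 in the HD_miR196a group, against 8.42 and 10.004 in the HD group, each in the order of mouse numbers, so mouse 1 of each group stood apart. The cortical vesicular glutamate transporter Slc17a7 was at 8.47, 11.76 and 11.05 in HD_miR196a mice and at 8.82 and 11.87 in HD mice. All values per mouse below are in the same order. Nothing in the labels says whether the mice came from separate litters, so p-values measure the spread between these mice. Fewer cells of a type and less RNA per cell cannot be told apart in tissue RNA.

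No subunit probe passed the test. Of the 9 probes 0 had a limma adjusted p under 0.05, as had 0% of all 26423 probes, and the smallest adjusted p among them was 0.979. At an unadjusted p under 0.05 there was 1 probe, the dimmer Gabrb2 probe, against 4.16% of all probes, 2.11% higher and 2.05% lower in HD_miR196a mice. The difference was above 0 for 3 probes and below 0 for 6, against 49.3% and 50.5% of all probes. On the brightest probe of each gene the median over the 7 genes was -0.055, against -0.0023 over all probes. The groups did not overlap at 4 of the 9 probes, 2 of them higher and 2 lower in HD_miR196a mice, where 20.3% of all probes did not overlap, 9.96% higher and 10.3% lower. An exact permutation test of 3 against 2 mice cannot give a p under 0.1.

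**Figure D1:**
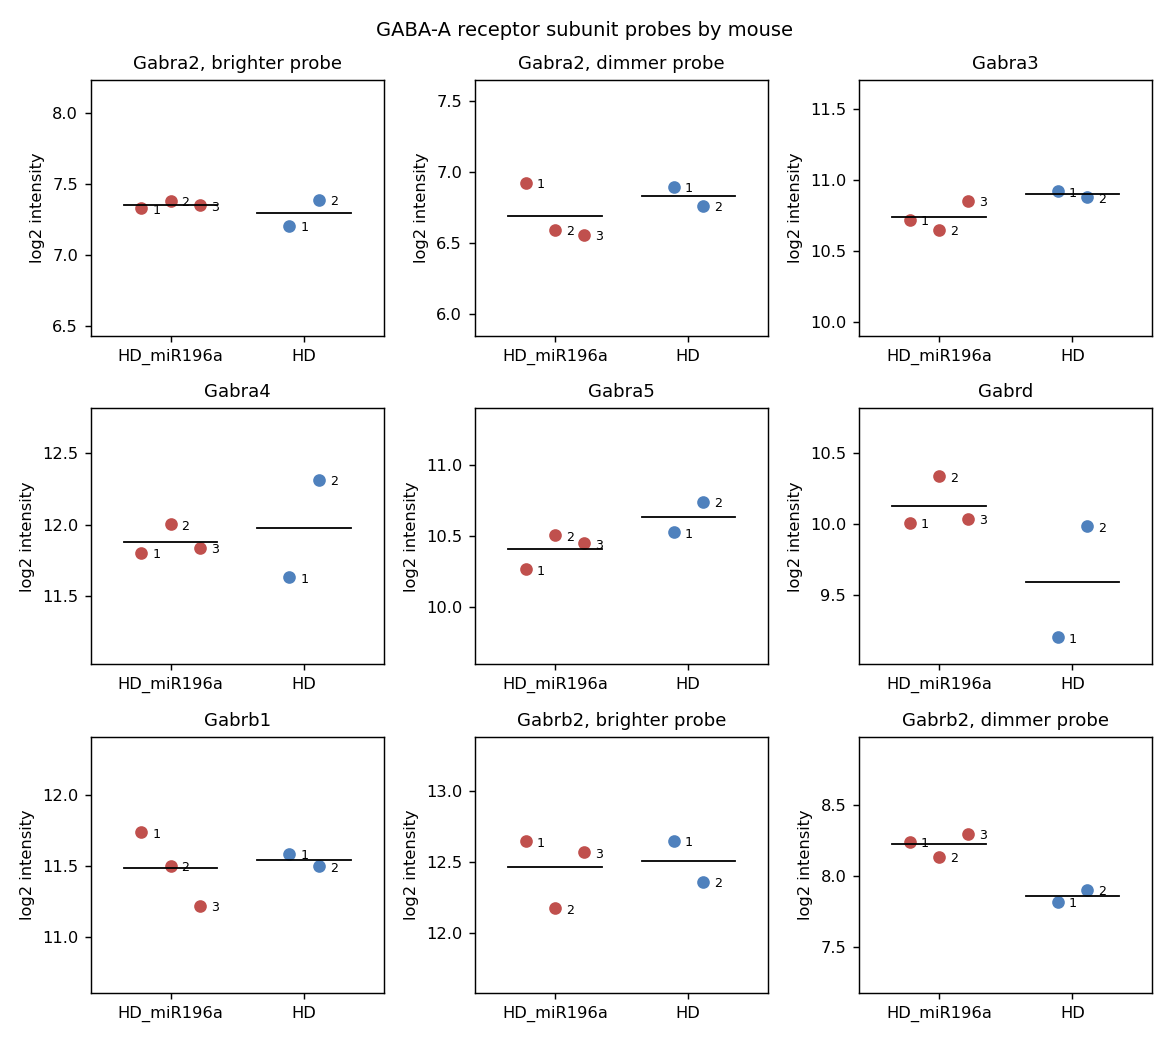
Log2 intensity (vertical axis, the same span in every panel) of the 9 subunit probes in HD_miR196a mice (left, red) and HD mice (right, blue), with mouse numbers beside the points and group means as lines. The groups do not overlap for Gabra3, Gabra5, Gabrd and the dimmer Gabrb2 probe, and Gabrd and Gabra4 are low in HD mouse 1.

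Among the synaptic alpha subunits, Gabra3 was slightly lower in HD_miR196a mice. Its probe read 10.72, 10.65 and 10.85 in HD_miR196a mice and 10.92 and 10.88 in HD mice. Every HD_miR196a mouse was below both HD mice. The means were 10.74 ± 0.10 (SD, n = 3) and 10.90 ± 0.03 (SD, n = 2), a difference of -0.16 ± 0.10 (SE), with a 95% interval from -0.43 to 0.11 (limma adjusted p = 0.979). Gabra2, the alpha subunit typical of medium spiny neuron synapses, was within the range of olfactory receptor probes on both of its probes. The brighter one read 7.33, 7.38 and 7.35 in HD_miR196a mice and 7.21 and 7.39 in HD mice, and the dimmer one 6.93, 6.60 and 6.56 against 6.90 and 6.76. The groups overlapped on both, the differences were 0.06 ± 0.10 and -0.14 ± 0.15 (SE), and the 95% interval on the brighter probe ran from -0.21 to 0.32. The brighter probe changed sign to -0.034 without HD mouse 1. Gabra2 thus had little signal over background.

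The 3 extrasynaptic subunits had differences of both signs, and none passed the test. Gabrd, which encodes the delta subunit of tonic receptors, read 10.01, 10.33 and 10.03 in HD_miR196a mice and 9.20 and 9.98 in HD mice. HD mouse 1 was far below the other 4 mice, and HD mouse 2 was just below the lowest HD_miR196a mouse. The means were 10.12 ± 0.18 (SD, n = 3) and 9.59 ± 0.55 (SD, n = 2), a difference of 0.53 ± 0.27 (SE), or 1.45-fold, with a 95% interval from -0.17 to 1.23 (limma adjusted p = 0.979). A difference of larger size was found at 6.39% of all probes. The deposited intensities of Gabrd were 914, 1214 and 1022 in HD_miR196a mice and 643 and 1110.1 in HD mice, and on that scale the groups overlapped. The size of the difference rested on HD mouse 1: it was 0.14 without that mouse and 0.92 without HD mouse 2.

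Most medium spiny neuron markers and most oligodendrocyte markers had a difference of the same sign as Gabrd. Of the 13 measured genes of medium spiny neurons 10 were higher and 3 lower in HD_miR196a mice, against 49.3% and 50.5% of all probes. None passed the test, and 7 did not overlap, against 20.3% of all probes. The list averaged 11.22, 11.20 and 11.06 in HD_miR196a mice and 10.69 and 11.11 in HD mice, so HD mouse 1 had the lowest value here as for Gabrd, and the group ranges overlapped. That overlap rested on Drd2: without it, an alternative chosen after seeing the data, the other 12 genes averaged 11.99, 12.08 and 11.98 in HD_miR196a mice and 11.57 and 11.89 in HD mice, and the groups did not overlap. Of 8 measured oligodendrocyte genes 7 were higher and 1 lower, 2 did not overlap, and the list averaged 12.61, 12.26 and 11.98 in HD_miR196a mice and 12.22 and 11.80 in HD mice, with overlapping groups. The mean difference was 0.263 over the medium spiny neuron genes and 0.270 over the oligodendrocyte genes. The astrocyte list had a larger mean difference, 0.914, through Slc1a3. That probe read 0.00 in HD mouse 1 and from 12.57 to 13.72 in the other mice. Without it, a choice also made after seeing the data, 3 of the other 6 astrocyte genes were higher and 3 lower, and the groups overlapped. By the share of genes that were higher, the other lists leaned the same way by less or not at all. Higher in HD_miR196a mice were 5 of 7 striatal interneuron genes, 4 of 6 endothelial, 4 of 7 astrocyte and 4 of 7 microglia genes. For hippocampus it was 3 of 5, for thalamus and pallidum 6 of 11 and for cortical projection neurons 6 of 14. Ppp1r1b, which encodes DARPP-32 of medium spiny neurons, read 11.55, 11.74 and 11.68 in HD_miR196a mice and 10.96 and 11.39 in HD mice. The enkephalin precursor gene Penk read 15.25, 15.08 and 15.04 against 14.73 and 14.76. The 3 lower medium spiny neuron genes were Drd2, Bcl11b and Meis2, with differences of -0.03, -0.16 and -0.05. The part of the medium spiny neuron or oligodendrocyte list in the Gabrd difference was not tested. With the mean of cortical neuron markers as a covariate the Gabrd difference was 0.55 ± 0.19 (SE, limma adjusted p = 0.826).

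Gabra4, which encodes the alpha subunit that pairs with delta, read 11.80, 12.00 and 11.84 in HD_miR196a mice and 11.63 and 12.31 in HD mice. The HD mice enclosed all 3 HD_miR196a mice, with HD mouse 1 the lowest and HD mouse 2 the highest of the 5. The difference was -0.09 ± 0.23 (SE), with a 95% interval from -0.69 to 0.50 (limma adjusted p = 0.993). It was -0.43 without HD mouse 1 and 0.25 without HD mouse 2, so the 2 HD mice decided its sign. Gabra5, the alpha subunit of other tonic receptors, read 10.27, 10.51 and 10.45 in HD_miR196a mice and 10.53 and 10.74 in HD mice. Every HD_miR196a mouse was below both HD mice. The difference was -0.23 ± 0.13 (SE), or 0.855-fold, with a 95% interval from -0.56 to 0.11 (limma adjusted p = 0.979). It was below 0 under all 16 alternatives, from -0.47 to -0.12, but some of these (floor, probe filters, eBayes settings) left the difference unchanged.

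Relative to its partner Gabra4, Gabrd was higher in every HD_miR196a mouse than in either HD mouse. After each gene was centred on its mean over the 5 mice, Gabrd minus Gabra4 was 0.21, 0.34 and 0.20 in HD_miR196a mice and -0.42 and -0.33 in HD mice. The SD was 0.08 in HD_miR196a mice (n = 3) and 0.07 in HD mice (n = 2), and the groups did not overlap. HD mouse 1 was the lowest of the 5 mice for both genes, but lay close to HD mouse 2 in their difference. The group difference was 0.62, and it lay between 0.58 and 0.67 with 1 mouse left out at a time. A shift of a whole array cancels in a difference of 2 probes, so median centring and no scaling gave the same 0.64. Floor, probe filters and eBayes settings left the difference unchanged, so those alternatives do not test it. This pair was singled out after its values were seen and has no test. Among the 21 pairs of member genes, 5 had groups without overlap, 4 of them among the 6 pairs with Gabrd, while single probes did not overlap at 20.3%. Gabrd minus Gabra5, Gabra3 and Gabra2 differed by 0.76, 0.69 and 0.48 without overlap, so the separation was not particular to Gabra4. Against Gabrb1 and Gabrb2 the groups overlapped. Pairs that share a gene are not independent, and a ratio of 2 probes shows unequal change, not which of the transcripts changed.

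**Figure D2:**
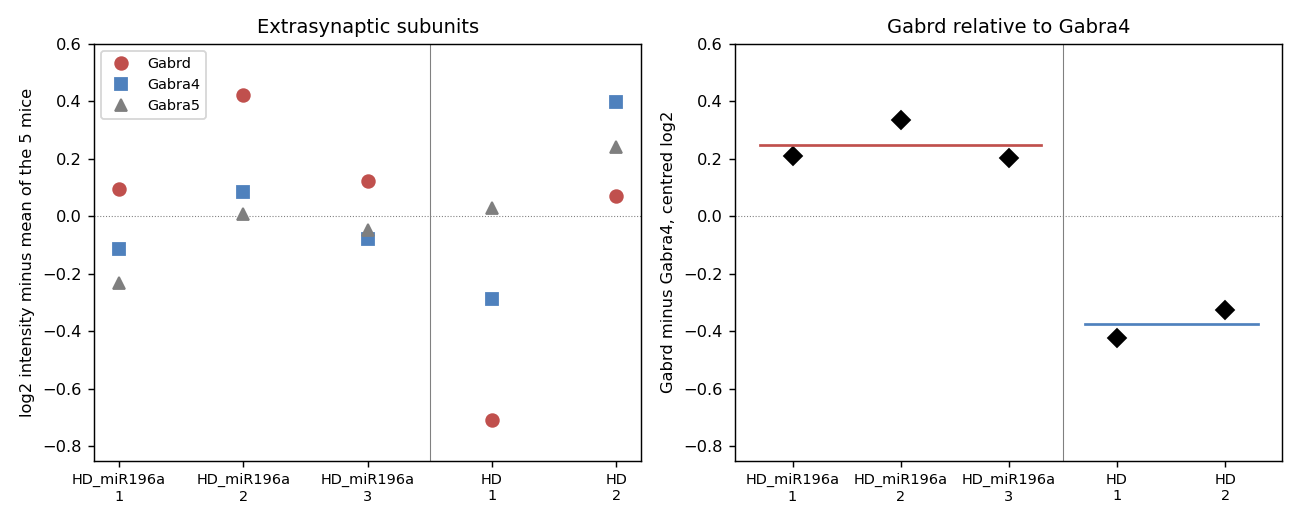
Left, log2 intensity of Gabrd (circles), Gabra4 (squares) and Gabra5 (triangles) minus each gene's mean over the 5 mice, by mouse. Right, Gabrd minus Gabra4 on the same centred log2 scale, with group means as lines: HD_miR196a mice lie between 0.20 and 0.34 and HD mice at -0.42 and -0.33.

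By the brightest probe of each gene, the median difference was -0.05 for the 2 synaptic alpha genes, -0.09 for the 3 extrasynaptic genes and -0.05 for the 2 beta genes. With 1 mouse left out, these medians ran from -0.087 to -0.016, from -0.33 to 0.25 and from -0.16 to 0.044, so the signs of the extrasynaptic and beta medians depended on single mice. The extrasynaptic median is that of Gabra4 alone, was 0.25 without HD mouse 2, and had the opposite sign to the mean difference of the 3 genes, 0.072. The differences of the extrasynaptic genes ran from -0.23 to 0.53 and those of the synaptic genes from -0.16 to 0.06. These spans cannot be compared directly, since they cover 3 and 2 genes and Gabra2 had little signal over background. The upper end, Gabrd, was 0.14 without HD mouse 1. The centred mean of the extrasynaptic genes was -0.08, 0.17 and -0.00 in HD_miR196a mice and -0.32 and 0.24 in HD mice, so the groups overlapped. That of the synaptic genes was -0.04, -0.05 and 0.03 in HD_miR196a mice and -0.00 and 0.07 in HD mice, and these overlapped too.

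The beta subunits, which carry part of the GABA binding site together with alpha, were close to each other in the 2 groups on their bright probes. Gabrb1 read 11.74, 11.50 and 11.22 in HD_miR196a mice and 11.58 and 11.50 in HD mice, with the HD mice inside the range of the HD_miR196a mice. Its difference was -0.06 ± 0.18 (SE), with a 95% interval from -0.52 to 0.41, and it changed sign to 0.078 without HD_miR196a mouse 3. The brighter Gabrb2 probe read 12.65, 12.18 and 12.57 in HD_miR196a mice and 12.65 and 12.36 in HD mice, which overlapped, and differed by -0.04 ± 0.19 (SE), with a change of sign to 0.10 without HD mouse 1 or without HD_miR196a mouse 2. The dimmer Gabrb2 probe had a difference of the opposite sign. It read 8.24, 8.13 and 8.30 in HD_miR196a mice and 7.82 and 7.90 in HD mice, with every HD_miR196a mouse above both HD mice. Its difference was 0.36 ± 0.10 (SE), with a 95% interval from 0.10 to 0.62, an unadjusted p of 0.0168 from limma and an adjusted p = 0.979. This probe was within the range of olfactory receptor probes, and the sources used here do not say which Gabrb2 transcripts each probe detects.

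**Figure D3:**
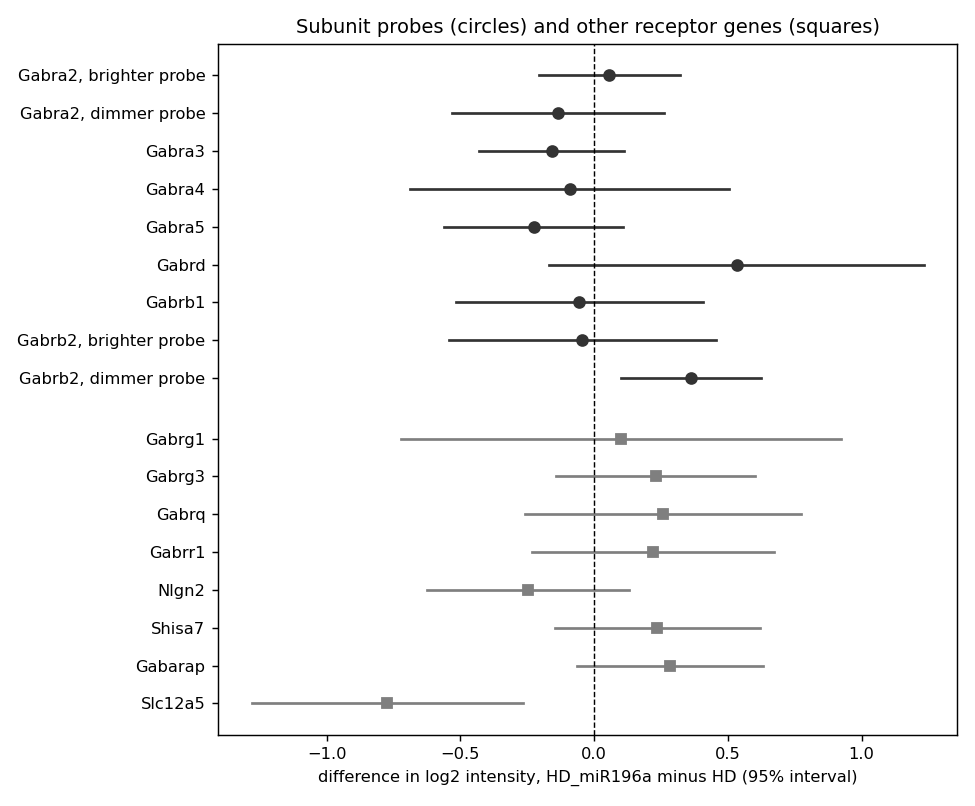
Difference in log2 intensity, HD_miR196a minus HD, with unadjusted 95% intervals from limma, for the 9 subunit probes (circles) and 8 other receptor genes (squares). The interval excludes 0 for the dimmer Gabrb2 probe, from 0.10 to 0.62, and for Slc12a5, from -1.28 to -0.27, and neither passes after adjustment over all probes.

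The pattern of Gabrd over the 5 mice was closest to those of 3 other genes. Gabrd was the only member probe that spanned more than 1 on the log2 scale over the 5 mice, 1.13, and it was compared with 332 named probes above the olfactory receptor percentile that also spanned more than 1. By root mean square distance of centred values over these 5 mice, the nearest was Car11, a carbonic anhydrase-related protein, at 0.07. Car11 read 11.91, 12.17 and 11.86 in HD_miR196a mice and 11.16 and 11.72 in HD mice. The cytoskeletal gene Tpm1, a tropomyosin, was at a distance of 0.10 and read 10.05, 10.26 and 9.82 against 9.22 and 9.86. Ddn, which encodes dendrin of neuronal dendrites, was at 0.11 and read 14.90, 15.35 and 14.93 against 14.31 and 15.15. All 3 were lowest in HD mouse 1, as was Gabrd, which follows from their choice by likeness over these same mice.

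The other genes of the receptor were taken from a list of 26 subunits, anchoring partners and chloride transporters, of which 21 were measured. On their brightest probes 0 passed the test, 13 were higher and 8 lower in HD_miR196a mice, and the groups did not overlap for 4, or 19.0%, against 20.3% of all probes. The median difference was 0.03. Of the 8 other subunits measured, 4 were above the olfactory receptor percentile. Gabrg3, a gamma subunit gene beside Gabra5, read 10.83, 10.62 and 10.45 in HD_miR196a mice and 10.45 and 10.36 in HD mice, a difference of 0.23 ± 0.14 (SE) that was opposite in sign to that of Gabra5. Gabrg1, beside Gabra2, differed by 0.10 ± 0.32, Gabrq, beside Gabra3, by 0.26 ± 0.20, and Gabrr1, a rho subunit best known from retina, by 0.22 ± 0.17. Single mice decided the sign of Gabrg1, at 0.45 without HD mouse 1 and -0.25 without HD mouse 2, and of Gabrq, at -0.040 without HD mouse 1. Gabra6, an alpha subunit of cerebellar granule cells beside Gabrb2, was between 0.00 and 1.92 in all mice.

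Among the partners and transporters, Slc12a5 stood farthest from 0. It encodes KCC2, the potassium-chloride cotransporter that keeps chloride low in mature neurons and so sets the direction of current through GABA-A receptors. Slc12a5 read 12.32, 12.61 and 12.87 in HD_miR196a mice and 13.49 and 13.26 in HD mice. Every HD_miR196a mouse was below both HD mice. The means were 12.60 ± 0.27 (SD, n = 3) and 13.37 ± 0.16 (SD, n = 2), a difference of -0.77 ± 0.19 (SE), or 0.585-fold, with a 95% interval from -1.28 to -0.27. The unadjusted p from limma was 0.0116 and the adjusted p = 0.979, and 3.03% of all probes had a difference of larger size. It was below 0 under all 16 alternatives, from -1.004 to -0.52, but some of these (floor, probe filters, eBayes settings) left the difference unchanged. The -1.004 and the smallest adjusted p from limma, 0.362, came without scaling between arrays, where the median over all probes was -0.20. Slc12a2, the chloride importer NKCC1, read 12.05, 11.67 and 11.64 in HD_miR196a mice and 11.88 and 11.40 in HD mice, overlapped and differed by 0.15 ± 0.21 (SE).

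Of the 11 anchoring and trafficking genes measured 0 passed the test, 7 were higher and 4 lower in HD_miR196a mice. Gphn, which encodes the synaptic scaffold gephyrin, differed by 0.03 ± 0.10 (SE), with a 95% interval from -0.22 to 0.27. Gabarap, which binds gamma subunits during trafficking, read 11.32, 11.31 and 11.07 in HD_miR196a mice and 11.05 and 10.85 in HD mice, a difference of 0.28 ± 0.13 (SE, limma adjusted p = 0.979) with groups that did not overlap. Its deposited intensities did overlap, and without scaling between arrays the difference was 0.036. Nlgn2, the adhesion protein of inhibitory synapses, read 11.22, 11.20 and 11.49 against 11.43 and 11.67 and overlapped, with a difference of -0.25 ± 0.14 (SE) that was -0.13 without HD mouse 2 and -0.37 without HD mouse 1. Shisa7, an auxiliary protein of GABA-A receptors, differed by 0.24 ± 0.15 (SE), by 0.055 without HD mouse 1 and by 0.417 without HD mouse 2, and was within the range of olfactory receptor probes.

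**Figure D4:**
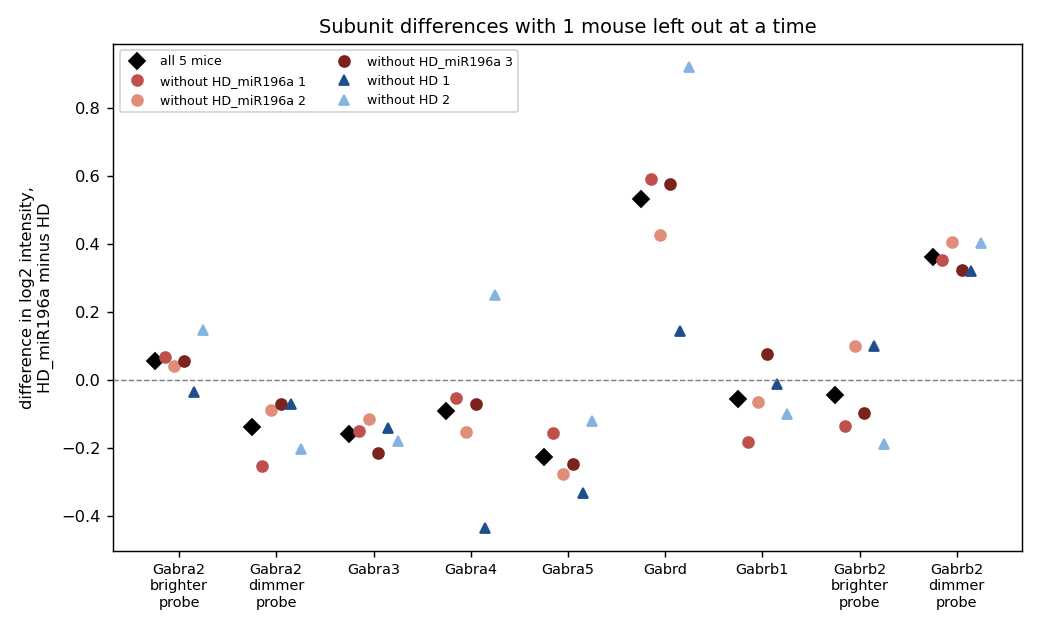
Difference in log2 intensity, HD_miR196a minus HD, of each subunit probe with all 5 mice (diamonds), without 1 HD_miR196a mouse (circles) and without 1 HD mouse (triangles). Gabrd ranges from 0.14 to 0.92 and Gabra4 from -0.43 to 0.25, while Gabra3, Gabra5 and the dimmer probes of Gabra2 and Gabrb2 keep their sign.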

How the data were processed

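Striatal RNA of 5 mice was measured on a single-colour array. Per the labels' protocols, amplified RNA carried Cy5, and the authors combined 2 technical repeats of each mouse, so the mouse is the replicate. The deposited values are linear intensities with some below 0, so background had been subtracted; the sources used here do not name scanner, software or scaling. The number of arrays limits the precision. Intensities were quantile normalized, floored at 1 and log2 transformed. All 26423 probes were fitted with limma 3.58.1 in R 4.3.3 (lmFit, eBayes; 3 residual and 1.75 prior degrees of freedom), two-sided, with Benjamini-Hochberg adjustment over all probes and a threshold of 0.05. The fit was also run on simulated data with independent noise and changes larger than any subunit difference found here. That run does not show whether changes of the size seen here could be detected. SE and 95% intervals come from the fit of the 5 mice.

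Gene names came from the platform's probe table, updated through RefSeq symbols of GRCm38.p6: of 20377 named probes 18213 matched directly, 2126 through a synonym and 38 not. No genome build was given for the probes. The members, the gene lists and the tests were chosen with earlier results of these data known. All member probes are named; of the other receptor genes, subunits above the olfactory receptor 95th percentile and the 2 partners or transporters with the smallest p in each direction are named by rule, as are Penk, Ppp1r1b, Slc17a7 and the 3 genes nearest to a member that spans over 1; others (Gphn, Slc12a2, Gabra6) are examples named after their values were seen. Other scalings, floors, filters, eBayes settings, array weights, the mouse number as a block, a covariate and mice left out were tried.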

Additional observations from a re-analysis of the deposited data

How the results depend on the processing

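Across 16 alternatives, 0 subunit probes and 0 other receptor genes were called. Of 142 values of subunit probes under alternatives, 133 kept their sign and 9 changed it, with no call in either fit. The higher floor, the probe filters and the trend and robust settings left the differences of subunit and other named genes as they were. No sign could change under those settings, so these counts overstate stability. The median difference of the 7 genes, -0.055, was -0.13 with median centring and -0.30 without scaling, where the all-probe median was -0.20 and the subunit median relative to it was -0.10. It was -0.13 without mouse 1 of each group, and between -0.14 and -0.034 with 1 mouse left out. Sign changes of single probes were as follows. The brighter Gabra2 probe was at -0.11 without scaling and -0.022 without mouse 1 of each group, and ranged from -0.034 to 0.15 with 1 mouse left out. Gabra4 ranged from -0.43 to 0.25, Gabrb1 from -0.18 to 0.078 and the brighter Gabrb2 probe from -0.19 to 0.10 with 1 mouse left out, and that Gabrb2 probe was at 0.0086 without mouse 1 of each group. Among the other genes, 7 of 127 values changed sign. Gabrg1 was at -0.13 without scaling and from -0.25 to 0.45 with 1 mouse left out, Gabrg3 at -0.0071 without scaling, Gabrq at -0.017 and Gabrr1 at -0.011 without mouse 1 of each group, and Gabrq from -0.040 to 0.55 with 1 mouse left out. The cause was not tested.

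With the mouse number as a replicate block, Gabrb1 was at 0.078 (adjusted p = 0.775), Gabrd at 0.58 (adjusted p = 0.601) and the subunit median at -0.07, and 0 probes of the array were called. No HD mouse has number 3, so the block gives the same differences as the fit without HD_miR196a mouse 3. The sign change of Gabrb1 under the block is thus the one already found without that mouse. The mice numbered 1 and 2 in both groups had deviations that correlated by 0.236 and 0.17 across probes, which are not independent, and the labels do not say whether equal numbers pair mice. Over the array, the 0 probes called became 4 with the higher floor, 1 among the 19817 brightest probes, 3 with trend and robust settings, 3 without HD mouse 1 and 3 without HD mouse 2, none of them a subunit probe. A fit without an HD mouse assumes that the lone HD mouse varies like the other group. At an unadjusted p below 0.05 the count of 1099 became 3641 without scaling, 528 with only the 13212 brightest tested, and 2020 with the block. The subunit probe at that level was not always the dimmer Gabrb2 probe. It was joined by Gabrd without HD mouse 2 and with the cortical covariate, Gabra3 and Gabra5 stood in its place without scaling, Gabrd with the block and Gabra4 without HD mouse 1, and 0 were at that level without mouse 1 of each group. Low signal limits Gabra2 and the dimmer Gabrb2 probe.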
